A study of Drosophila melanogaster with 23 samples.

Results

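Mitochondrial ribosomal protein genes were followed across 8 groups of Drosophila melanogaster samples profiled on 23 one-colour Affymetrix arrays. The genes were taken by name, as those whose current RefSeq symbol begins with mRpL or mRpS and a number. Of 73 such genes, 69 had a probe set assigned to that gene alone, and these 69, out of 11982 genes with a probe set of their own, are described here. Of the others, mRpL34 and mRpL37 had no probe set in the annotation used, and those of mRpL53 and mRpS10 were shared with another gene. The rule used no measured value, apart from taking the brightest probe set for mRpL47 and mRpS11, which had 2 each. By the letter of their symbol, 44 of the 69 genes were counted as large subunit (mRpL) and 25 as small subunit (mRpS). Every count by subunit below follows that letter, not a known place in the ribosome.

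All sorted groups were fluorescent brain cells, collected after about 50 heads had been dissected near Zeitgeber time 12, the hour of lights-off, from flies kept in 12 h of light and 12 h of darkness. Larval Elav and adult Elav cells came from an Elav-Gal4 line driving a UAS-GFP reporter, in which Gal4 is meant to mark neurons in general. Larval Pdf cells came from Pdf-Gal4 with UAS-GFP, the driver of the clock neurons that make the neuropeptide PDF, and in adults the same line gave large Pdf and small Pdf cells, told apart by size. Larval Tim cells came from Tim-Gal4 with UAS-YFP, and larval Tim without Pdf cells from the same driver and reporter with Pdf-Gal80 added, which blocks Gal4 where PDF is made. Adult eyes were dissected whole and held no sorted cell type. Each group had 3 biological replicates, except adult small Pdf with 2. The labels give neither age in days nor sex. They call the replicates biological without saying how these were drawn. Each p-value below sets a difference against the spread among these samples only. Unless another fit is named, that spread is pooled over all groups.

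Mitochondria keep a small genome whose messages encode core subunits of the respiratory chain and the ATP synthase. These messages are translated inside the organelle by a ribosome of its own, whose RNAs come from the mitochondrial genome and whose proteins are encoded in the nucleus, made in the cytosol and imported. The large subunit forms the peptide bond and holds the exit tunnel, while the small subunit binds the message and reads the codons.

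The values are log2 GCRMA expression levels made by the authors, and a level of 5 was used as the limit of detection. The number of arrays limits the precision. All 7 neuronal markers had a group mean above 5 in larval Pdf, larval Tim and the sorted adult groups. In larval Tim without Pdf 6 of 7 did, but its replicate 3 had 2 of 7 neuronal and 2 of 6 clock neuron markers above 5, against 6 and 7 neuronal and 4 and 4 clock neuron markers on the other arrays of that group. The label went against the markers in larval Elav, where elav was the only one of 7 neuronal markers with a group mean above 5. Rim, Snap25 and para lay below 5 on all 3 arrays, and replicates 1, 2 and 3 had 4, 1 and 1 of 7 neuronal markers above 5. There, the summed level of 9 markers of neuroblasts and dividing cells was 15.39 to 16.01 (log2), with all 9 above 5, against 12.69 to 13.49 in larval Pdf, 10.93 to 14.15 in larval Tim, 8.81 to 9.86 in larval Tim without Pdf, and 6.40 to 9.995 over the adult groups. In larval Tim without Pdf, dpn, ase, wor, CycB, Incenp and aurB were below 5 on all arrays. Larval Tim and larval Tim without Pdf also carried ring gland markers (6 of 6 and 5 of 6 with a mean above 5), which were below 5 on all arrays of the other sorted groups. The larval Tim arrays differed widely in them, with 6, 5 and 3 of 6 above 5 on replicates 1, 2 and 3 (summed level 10.47 to 15.45). Glial markers had a mean above 5 for 1 of 7 in larval Elav (summed level 10.35 to 11.17), 5 in larval Pdf (11.91 to 13.70), 6 in larval Tim (11.52 to 12.71) and 2 in larval Tim without Pdf (11.26 to 12.29). Every comparison with larval Elav below therefore moves with these dividing-cell, neuronal, ring gland or glial markers, and their part in the results was not tested. In samples of many cells, fewer cells of a type and less RNA per cell cannot be told apart.

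The 69 genes stood highest in larval Elav and lowest in the eye. The median over the genes was 10.07, 10.56 and 10.15 on the larval Elav arrays. It was 9.39, 9.03 and 9.11 in larval Tim, 8.72, 8.95 and 8.82 in larval Pdf, and 9.05, 8.68 and 8.61 in larval Tim without Pdf. Among adults it was 9.37, 9.07 and 8.58 in Elav, 8.86, 7.84 and 8.65 in large Pdf, 8.30 and 7.77 in small Pdf, and 7.91, 7.48 and 7.45 in the eye. Larval Elav thus lay above every other array. Below it the order of the means was larval Tim, adult Elav, larval Pdf, larval Tim without Pdf, large Pdf, small Pdf and eye, and each neighbour in that order overlapped the next in its arrays. The median over all 7670 genes tested also differed by group. Its group mean was 7.69 in both larval and adult Elav, 7.74 in larval Tim, 7.64 in larval Pdf and 7.11 in larval Tim without Pdf. It was 7.39 in large Pdf, 7.47 in small Pdf and 7.11 in the eye, so the eye was also among the lowest over all genes.

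**Figure D1:**
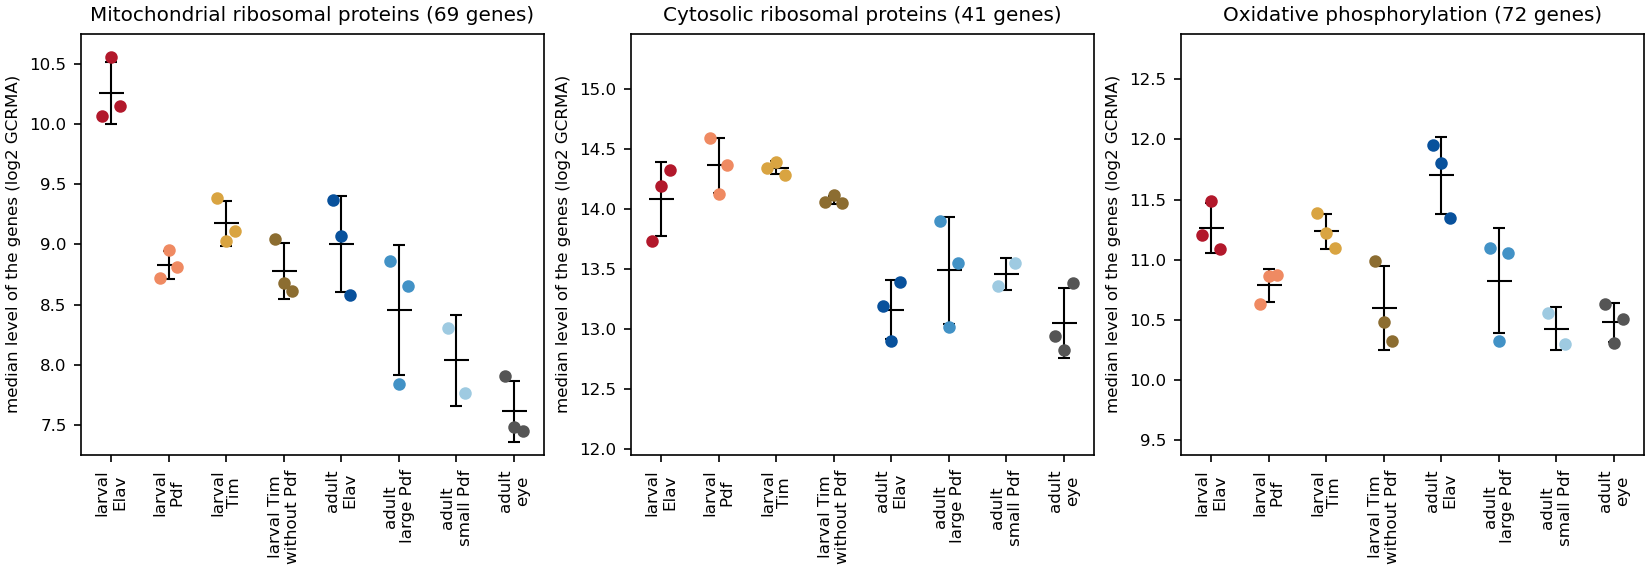
Median level of 3 gene lists on each array (log2 GCRMA, vertical axis, all panels spanning the same range), by group. Points are arrays, black marks the mean and SD over 3 arrays (2 for adult small Pdf). The mitochondrial ribosomal proteins have their highest 3 arrays in larval Elav (10.07 to 10.56) and their lowest group mean in the eye (7.61), while the cytosolic ribosomal proteins have group means of 14.07 to 14.36 in the 4 larval groups.

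Gene by gene, larval Elav had the highest group mean for 62 of 69 genes, 40 of 44 in the large subunit and 22 of 25 in the small. The exceptions were mRpL10 and mRpL33 (highest in larval Tim without Pdf), mRpL4, mRpL47 and mRpS5 (adult Elav), and mRpS9 and mRpS25 (large Pdf). The lowest group mean was in the eye for 43 genes, in small Pdf for 17, in large Pdf for 6, in larval Tim without Pdf for 2 and in larval Pdf for 1. How many of all genes tested have their highest or lowest mean in each group was not counted. All 69 genes passed the filter on low values (above 5 on at least 2 arrays), and 53 were above 5 on every array. Undetected on all arrays of a group were mRpL21 in large Pdf, mRpS21 in small Pdf, and mRpL3 and mRpL54 in the eye.

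**Figure D2:**
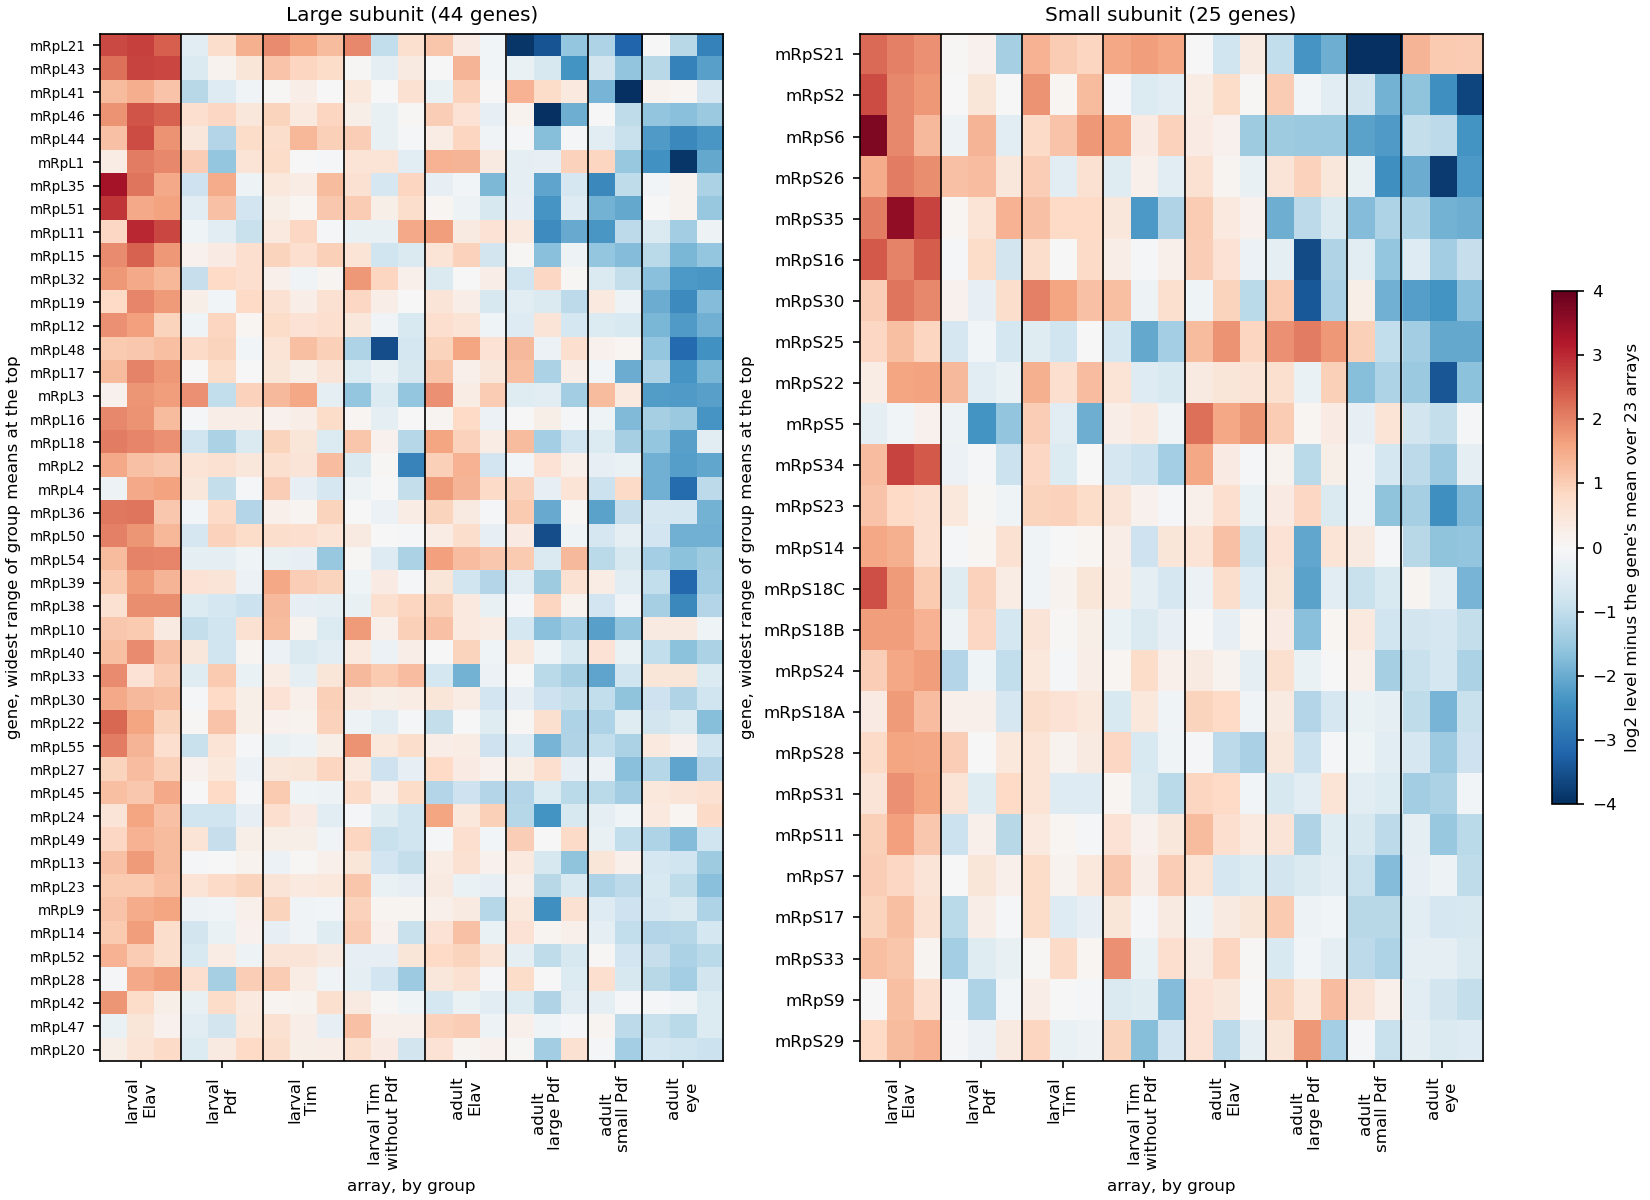
Level of each gene on each of 23 arrays, as log2 GCRMA minus the gene's mean over the 23 arrays (red above, blue below), with arrays by group on the horizontal axis and genes on the vertical axis, ordered by the range of their group means. The larval Elav columns are red for nearly all genes, the eye columns blue for most, and mRpS21, mRpS5, mRpS25 and mRpL45 break the pattern.

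The genes varied together only in part. Over the 23 arrays the Pearson correlation of each gene with the median of the other 68 had a median of 0.76, ran from 0.08 for mRpS5 to 0.95 for mRpL15, and was above 0.5 for 59 genes. These points share arrays and groups, so the values describe likeness alone. The least alike were mRpS5 (0.08), mRpL45 (0.37), mRpL33 (0.38), mRpS9 (0.39) and mRpS21 (0.41). The range of the 8 group means was widest for mRpS21 (7.36 log2 units), mRpL21 (5.56), mRpS2 (4.66), mRpL43 (4.54), mRpS6 (4.51) and mRpS26 (4.50). It was narrowest for mRpL20 (1.30), mRpL47 (1.41), mRpL42 (1.64) and mRpS29 (1.67), the last of these a GTP-binding protein of the small subunit known in mammals as DAP3.

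Against larval Elav, larval Pdf neurons had less of many mitochondrial ribosomal protein transcripts. A gene is called here where limma gave an adjusted p under 0.05 over all genes tested and the group means differed at least 2-fold. By that rule 31 of 69 genes were lower in larval Pdf and none higher, where 12.8% of all genes tested were called lower (46 of the 69 had an unadjusted p under 0.05). The difference was negative for all 69, with a median of -1.38 on the log2 scale against -0.11 over all genes tested. The arrays did not overlap for 53. In this and the later comparisons, counts without overlap and counts at an unadjusted p under 0.05 have no share over all genes beside them. They describe the 69 genes alone. Both subunits took part, with 20 of 44 large subunit and 11 of 25 small subunit genes called.

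**Figure D3:**
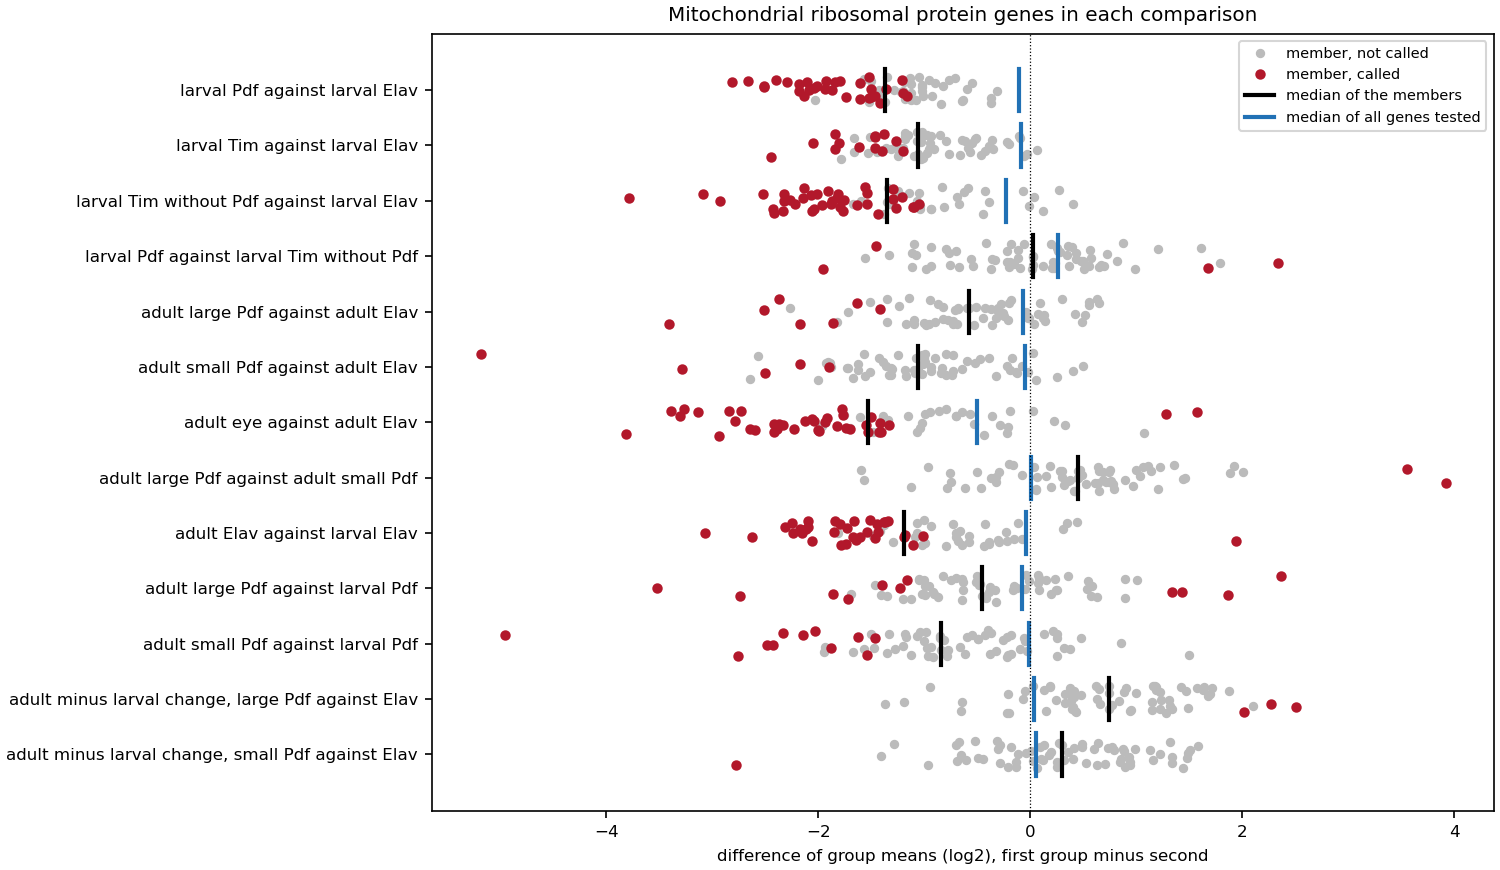
Difference of group means (log2, first group minus second, horizontal axis) for each of the 69 genes, by comparison. Red points passed both thresholds, grey did not; black bars mark the median of the 69 genes and blue bars the median of all 7670 genes tested. The black bar lies left of the blue one in the 7 comparisons of one group with larval or adult Elav, with medians from -0.58 to -1.53.

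Among large subunit genes, mRpL18, whose bacterial counterpart binds the 5S ribosomal RNA, read 5.81, 5.36 and 6.02 in larval Pdf and 8.65, 8.55 and 8.44 in larval Elav. The groups were far apart and the larval Pdf values were near the limit of detection; the difference was -2.81 ± 0.66 (SE; 7.03-fold lower, limma adjusted p = 0.0037). For mRpL43, a protein without a bacterial counterpart, the levels were 6.86, 7.58 and 7.93 against 9.64, 10.13 and 10.12, a 5.69-fold lower mean (adjusted p = 0.00238). The call for mRpL11, a protein of the site where translation factors dock (6.34-fold lower, adjusted p = 0.0105), was lost without larval Elav replicate 2.

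In the small subunit, mRpS34 read 7.77, 7.97 and 7.14 in larval Pdf and 9.24, 10.72 and 10.47 in larval Elav (5.72-fold lower, adjusted p = 0.00167). mRpS21 read 8.85, 8.99 and 7.50 against 11.09, 10.82 and 10.64 (5.29-fold lower, adjusted p = 4.09e-04). In neither gene did the groups overlap. mRpS16, the counterpart of bacterial S16, was 4.92-fold lower and mRpS24 was 4.53-fold lower (adjusted p = 0.00975 and 9.08e-04). The count of calls fell to 14 without larval Elav replicate 2 and to 17 without larval Pdf replicate 1, all in the same direction. Markers of hemocytes, insect blood cells, differed between the larval Pdf arrays (summed level 5.30 to 12.84, 4 of 6 with a mean above 5, NimC1 below 5 throughout), and their part in the result was not tested.

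In larval Tim cells, a broader set of clock cells than Pdf, fewer genes passed: 13 of 69 were lower than in larval Elav and none higher, against 9.63% of all genes tested called lower (33 of the 69 had an unadjusted p under 0.05). The median difference was -1.06 (all genes tested -0.09), 68 of 69 were negative, and the arrays of 41 did not overlap. The large subunit gave 7 calls and the small subunit 6. mRpL54, a mitochondrion-specific protein, lay at least 5.11-fold lower in larval Tim, where 2 of 3 arrays were above 5 (adjusted p = 8.99e-04). mRpL40 was 3.58-fold lower (adjusted p = 0.00373), and both calls held whichever array was left out.

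The count for larval Tim changed when single arrays were left out, while the median difference stayed between -1.17 and -0.97. Leaving out replicate 2 of either group gave 2 calls, replicate 3 of either group 6, and replicate 1 of larval Tim 7; weighting each array by its estimated quality gave 44, all lower. The comparisons of larval Pdf, larval Tim and larval Tim without Pdf share the larval Elav arrays, so their results are not independent. Genes called in several of these comparisons are listed further below as a description only.

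Larval Tim without Pdf had the largest number of calls of the 3 larval comparisons: 38 of 69 genes were lower than in larval Elav and none higher, but 25.4% of all genes tested were also called lower (47 of the 69 had an unadjusted p under 0.05). The median difference was -1.35 against -0.23 for all genes tested, and the arrays of 45 genes did not overlap. Of the large subunit 26 genes and of the small subunit 12 were called. mRpS35, a mitochondrion-specific small subunit protein, read 8.61, 5.83 and 6.94 against 10.19, 11.70 and 10.85. Its 3 values spread widely but stayed below those of larval Elav, a 13.8-fold lower mean (difference -3.78 ± 0.59 SE, adjusted p = 5.4e-05).

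mRpS34 was 8.52-fold lower in larval Tim without Pdf (adjusted p = 1.53e-04). mRpL48 was at least 6.83-fold lower, with 2 of 3 arrays above 5 (adjusted p = 7.6e-04). mRpL2 and mRpL3, whose bacterial counterparts border the site of peptide bond formation, were 5.003-fold and 5.36-fold lower (adjusted p = 0.00337 and 0.00721). mRpS2 was 5.39-fold and mRpS25 5.03-fold lower (adjusted p = 0.00162 and 6.27e-04). mRpL10, which in bacteria anchors the stalk of L7/L12 proteins, and mRpS5 were at 0.12 and 0.27 above larval Elav on the log2 scale and were not called (adjusted p = 0.915 and 0.782). The count was 21 without larval Elav replicate 2, 24 and 25 without larval Tim without Pdf replicates 2 and 3, and 23 after quantile normalization once more, which moved the median of all genes from -0.23 to -0.04 and that of the 69 genes to -0.95.

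With adult Elav included, 4 comparisons used larval Elav as reference, and 56 of the 69 genes were called lower in at least 1 of them. The shares of all genes tested called lower in at least 1, in all or in none were not counted. In the single comparisons, 12.8% of all genes tested were called lower in larval Pdf and 9.63% in larval Tim. In larval Tim without Pdf 25.4% were, and in adult Elav 23.4%. Those called lower in all 4 were mRpL16, mRpL40 and mRpL43 of the large subunit and mRpS16, mRpS34 and mRpS35 of the small. Since the 4 comparisons share the larval Elav arrays, a high value there enters all 4. Called in none of the 4 were mRpL1, mRpL4, mRpL10, mRpL20, mRpL47, mRpL50, mRpS14, mRpS17, mRpS22, mRpS23, mRpS29 and mRpS30.

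Larval Pdf and larval Tim without Pdf, the PDF clock neurons and the Tim cells left once these are silenced for the reporter, differed in few genes of the family. There were 2 genes called higher and 2 lower in larval Pdf, where 15.1% of all genes tested were called higher and 7.56% lower. The median difference was 0.03, below the 0.26 of all genes tested. mRpL48 read 8.82, 8.95 and 7.95 in larval Pdf and 6.84, 4.52 and 7.35 in larval Tim without Pdf, at least 4.52-fold higher in larval Pdf with 2 of 3 arrays of the other group above 5 (adjusted p = 0.00889). mRpS21 was 3.89-fold and mRpS33 2.74-fold lower in larval Pdf (adjusted p = 0.00321 and 0.0322). mRpS35 was 3.20-fold higher in larval Pdf (adjusted p = 0.0455), with overlapping arrays. limma fitted to these 2 groups alone called none of the 69 (7 had an unadjusted p under 0.05), and the count was 2 without larval Tim without Pdf replicate 3; after quantile normalization once more the median of the 69 genes was -0.34, with 1 gene called higher and 8 lower. In the same comparison 5 of 6 ring gland markers were called lower in larval Pdf (median difference -9.52), while 8 of 9 dividing-cell markers (4.31), 5 of 7 neuronal markers and 3 of 6 hemocyte markers were called higher, and their part in the result was not tested.

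In the adult brain, large Pdf neurons had lower levels than Elav cells for a few genes. There were 7 of 69 called lower and none higher, against 5.66% of all genes tested called lower, and the median difference was -0.58 (all genes tested -0.07); 16 of the 69 had an unadjusted p under 0.05. Of the 7, 5 belonged to the large subunit. mRpL24, which in bacteria sits at the rim of the exit tunnel, read 7.89, 6.66 and 8.39 in large Pdf and 10.61, 9.46 and 10.002 in adult Elav, so the groups did not overlap (5.18-fold lower, adjusted p = 0.00228). mRpL21 lay below 5 on all 3 large Pdf arrays (2.39, 2.81 and 4.71) and at 7.39, 6.59 and 6.14 in adult Elav, at least 3.27-fold lower (adjusted p = 0.00857), and was not called with values under 5 raised to 5. mRpL10 was 3.64-fold lower and mRpS21 3.097-fold lower (adjusted p = 0.0312 and 0.0215). The count was 2 without large Pdf replicate 2 or adult Elav replicate 1, 3 without adult Elav replicate 2, and 4 without large Pdf replicate 3; the median was -0.94 without adult Elav replicate 3, and a fit of the 2 groups alone called 1 gene.

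Small Pdf neurons, with 2 arrays, had 5 of 69 genes called lower than adult Elav and none higher, against 5.18% of all genes tested called lower (31 of the 69 had an unadjusted p under 0.05). The median difference was -1.06 against -0.05 for all genes tested, 64 of 69 differences were negative, and the arrays of 39 genes did not overlap. mRpS21, the counterpart of bacterial S21, read 3.44 and 3.54 in small Pdf and 8.82, 8.03 and 9.17 in adult Elav. It was undetected in small Pdf alone among the 8 groups, at least 12.8-fold lower than in adult Elav (adjusted p = 5.6e-07), and was called whichever array was left out. mRpL41, a mitochondrion-specific protein, read 6.40 and 3.98 against 7.996, 9.18 and 8.26, at least 6.85-fold lower with 1 of 2 arrays above 5 (adjusted p = 7.2e-04). mRpL10 was 5.66-fold lower, mRpL54 4.51-fold and mRpL15 3.73-fold (adjusted p = 0.0103, 0.0138 and 0.0355). The count was 3 without adult Elav replicate 1 and 8 without larval Tim without Pdf replicate 2, an array that enters only the shared spread. In adult Elav, large Pdf and small Pdf 1 of 7 glial markers had a mean above 5 and no photoreceptor marker did. Of 6 hemocyte markers Pxn alone had a mean above 5, with a summed level of 9.96 to 11.08 in adult Elav, 11.60 to 12.15 in large Pdf and 7.38 to 10.86 in small Pdf, and its part in the results was not tested.

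The eye had the lowest levels of the family. Against adult Elav, 36 of 69 genes were called lower and 2 higher, where 25.5% of all genes tested were called lower and 14.4% higher. The median difference was -1.53, and that of all genes tested -0.50, which became -0.21 after quantile normalization once more (the 69 genes then had -1.06). The arrays of 49 genes did not overlap in the lower direction and those of 2 in the higher. In the large subunit 24 of 44 were called lower, and in the small subunit 12 of 25.

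mRpL1, whose bacterial counterpart forms a mobile stalk that guides spent tRNA out, read 5.85, 4.37 and 6.20 in the eye and 9.64, 9.60 and 8.63 in adult Elav. It was at least 12.2-fold lower, with 2 of 3 eye arrays above 5 (adjusted p = 3.57e-04). mRpL4, which in bacteria lines the exit tunnel, read 6.45, 5.28 and 7.31 against 10.08, 9.73 and 9.14 (9.85-fold lower, adjusted p = 4.54e-04). mRpS25 read 8.10, 7.44 and 7.43 against 10.74, 11.28 and 10.35 (8.80-fold lower, adjusted p = 2.8e-05). These 3 genes had no overlap between groups and stayed called whichever array was left out. mRpL48 was at least 10.3-fold lower (2 of 3 eye arrays above 5) and mRpL3, undetected in the eye, at least 7.27-fold lower (adjusted p = 1.85e-04 and 6.99e-04). mRpL44, which carries an RNase III-like fold in humans, was 6.62-fold lower, mRpS26 at least 6.66-fold and mRpS22 at least 6.24-fold lower, both with 2 of 3 eye arrays above 5 (adjusted p = 6.31e-04, 4.53e-04 and 0.00108).

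The 2 genes that went the other way were mRpL45 and mRpS21. mRpL45, whose human counterpart lies at the exit tunnel and helps hold the ribosome to the inner membrane, read 10.15, 10.26 and 10.34 in the eye and 8.55, 8.92 and 8.56 in adult Elav, a 2.97-fold higher mean with tight groups (adjusted p = 0.00291). mRpS21 read 10.19, 9.85 and 9.84 against 8.82, 8.03 and 9.17 (2.43-fold higher, adjusted p = 0.024), and lost its call without eye replicate 1 or adult Elav replicate 2. The eye arrays alone among adult groups carried 6 of 6 photoreceptor markers (summed level 16.26 to 16.90), 5 of 7 glial markers, 4 of 6 hemocyte markers, 5 of 5 muscle markers and 2 of 4 fat body markers (14.63 to 15.27, Fbp1 and Fbp2 below 5) with means above 5. Their part in the result was not tested.

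Between large and small Pdf neurons only mRpL41 and mRpS21 were called, both higher in large Pdf, where 1.71% of all genes tested were called higher. mRpL41 read 9.65, 9.01 and 8.67 in large Pdf and 6.40 and 3.98 in small Pdf, at least 10.6-fold higher with 1 of 2 small Pdf arrays above 5 (adjusted p = 3.76e-04). mRpS21 read 7.82, 6.46 and 6.86 against 3.44 and 3.54, at least 4.12-fold higher (adjusted p = 2.04e-04). For both genes every large Pdf array was above every small Pdf array. Over the 69 genes the median difference was 0.45 (all genes tested 0.01), with 52 positive. limma fitted to the 2 groups alone called none of the 69 (10 had an unadjusted p under 0.05), and 4 genes were called without small Pdf replicate 1.

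**Figure D4:**
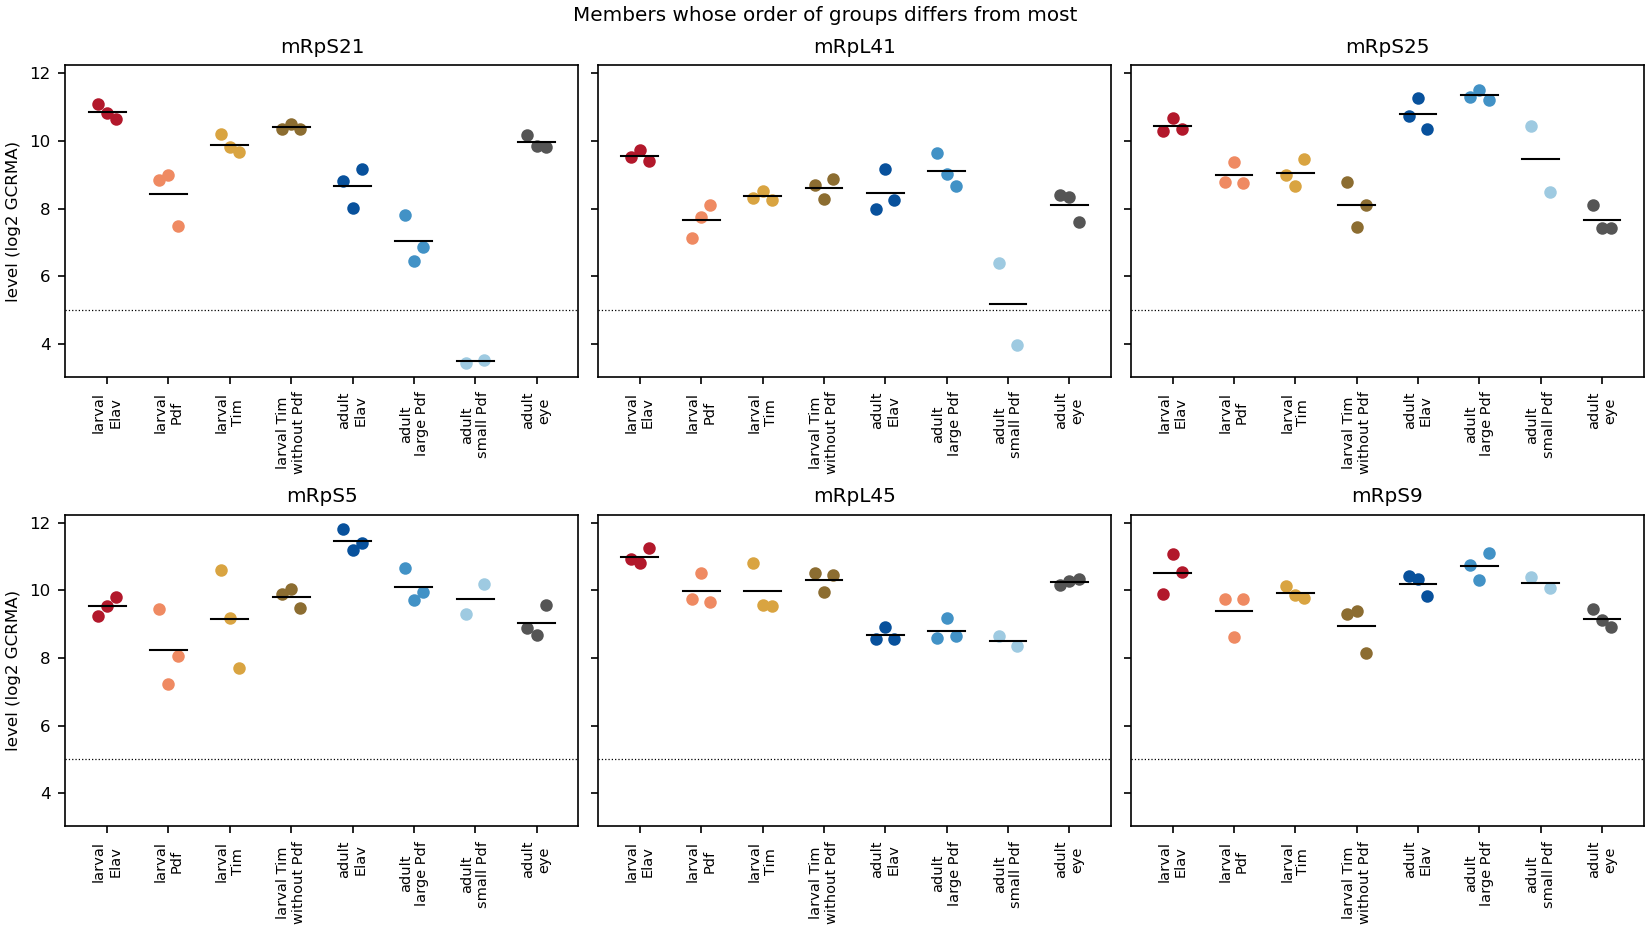
Level (log2 GCRMA, vertical axis) of 6 genes whose order of groups departs from that of most, by group. Points are arrays, bars are group means and the dotted line is the limit of detection at 5. mRpS21 falls below the limit on both small Pdf arrays (3.44 and 3.54), mRpS25 is highest in large Pdf, mRpS5 in adult Elav, and mRpL45 is higher in the eye than in the sorted adult cells.

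Adult Elav cells had less of much of the family than larval ones. From larval to adult Elav, 33 of 69 genes were called lower and 1 higher, where 23.4% of all genes tested were called lower and 20.3% higher. The median difference was -1.19 (all genes tested -0.04) and the arrays of 42 genes did not overlap in the lower direction. mRpL35 was 8.40-fold lower in adult Elav (adjusted p = 0.00146), mRpS6 6.16-fold (adjusted p = 0.00231), mRpL45 4.98-fold (adjusted p = 5.9e-05), mRpS35 4.74-fold and mRpL51 4.73-fold (adjusted p = 0.00408 and 0.00554). The gene called higher was mRpS5, whose bacterial counterpart lies at the entry of the message channel. It read 11.82, 11.18 and 11.39 in adult Elav and 9.24, 9.54 and 9.81 in larval Elav, with no overlap (3.83-fold higher, adjusted p = 0.0138), and lost its call without adult Elav replicate 1. Without larval Elav replicate 2 the calls were 19 lower and 1 higher, and without adult Elav replicate 3 they were 14 lower and 1 higher. The larval and adult Elav arrays also differed in neuronal markers (1 of 7 against 7 of 7 with a mean above 5) and dividing-cell markers (9 of 9 against 1 of 9), whose part in the result was not tested.

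Between larval Pdf and adult large Pdf neurons 7 of 69 genes were called lower in the adult and 4 higher. These shares lie below those of all genes tested, of which 15.2% were called lower and 11.3% higher, and the median difference was -0.45 (all genes tested -0.08). mRpS25 read 11.32, 11.52 and 11.22 in large Pdf and 8.80, 9.39 and 8.77 in larval Pdf. Its adult arrays lay together well above the larval ones (5.15-fold higher, adjusted p = 0.00104), and the call held whichever array was left out. mRpS5 was 3.65-fold higher, mRpL41 2.70-fold and mRpS9, whose bacterial counterpart reaches the tRNA at the P site, 2.53-fold (adjusted p = 0.0281, 0.0429 and 0.0269), and the call of mRpL41 was kept under 20 of 31 alternatives. Among the lower genes, mRpL46 was at least 5.54-fold lower with 2 of 3 large Pdf arrays above 5, and mRpL21 at least 3.54-fold lower (adjusted p = 0.00808 and 0.0028). The count of 11 was 4 without larval Pdf replicate 2, 6 without large Pdf replicate 3, and 2 in a fit of the 2 groups alone. Of the markers of other cells, 9 of 9 for dividing cells (median difference -4.35), 3 of 6 tested for glia and 3 of 6 for hemocytes were called lower in large Pdf, and 1 hemocyte marker higher; their part in the result was not tested.

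From larval Pdf to adult small Pdf, 11 genes were called lower and none higher, against 7.5% of all genes tested called lower (21 of the 69 had an unadjusted p under 0.05), with a median difference of -0.84 (all genes tested -0.01). mRpS21 was at least 10.9-fold lower in small Pdf, below 5 on both arrays (adjusted p = 2.7e-06). mRpS6 was 5.38-fold, mRpS26 5.04-fold and mRpL15 4.08-fold lower (adjusted p = 0.0311, 0.0178 and 0.0205). mRpL23, at the rim of the exit tunnel in bacteria, was 3.69-fold lower and mRpL41 at least 3.93-fold, with 1 of 2 small Pdf arrays above 5 (adjusted p = 0.0132 and 0.00724). The count was 4 without larval Pdf replicate 2, 6 without small Pdf replicate 1, and 1 without small Pdf replicate 2 or in a fit of the 2 groups alone; the median was -0.47 without small Pdf replicate 2. Here 8 of 9 dividing-cell markers (median difference -4.34), 4 of 6 glial markers tested and 3 of 6 hemocyte markers were called lower in small Pdf, and their part in the result was not tested.

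Whether adult and larval Pdf cells differed as adult and larval Elav cells did was tested as a difference of the 2 differences, called changes below. The labels do not say that a larval and an adult group hold the same cells at 2 ages. A change here is therefore a difference between groups. For large Pdf, 3 of 69 genes were called higher and none lower, against 6.84% of all genes tested called higher (12 of the 69 had an unadjusted p under 0.05), with a median of 0.75 (all genes tested 0.04) and 59 positive. mRpL41 changed by 1.43 from larval Pdf to large Pdf and by -1.07 from larval to adult Elav, a difference of 2.50 ± 0.72 (SE; adjusted p = 0.0198). mRpS24 changed by 0.90 and -1.37 (difference 2.27 ± 0.60, adjusted p = 0.013), and mRpS25 by 2.37 and 0.35 (difference 2.02 ± 0.66, adjusted p = 0.04). The number called was 1 without large Pdf replicate 1 or adult Elav replicate 1, and 5 without larval Elav replicate 1 or large Pdf replicate 2.

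For small Pdf, 1 gene was called lower and none higher, against 9.61% of all genes tested called lower (3 of the 69 had an unadjusted p under 0.05). This was mRpS21, lower by 4.96 in small Pdf than in larval Pdf and by 2.17 in adult than in larval Elav (difference -2.78 ± 0.65, limma adjusted p = 0.00606). With values under 5 raised to 5 the difference was -1.27 and limma called none of the 69 (6 had an unadjusted p under 0.05); without small Pdf replicate 1 or 2 the number called was 2. The median difference over the 69 genes was 0.30 (all genes tested 0.05).

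Several genes were followed throughout. The 3 forms of mRpS18, a protein present in metazoan mitochondria as paralogs, were all called lower than larval Elav in larval Tim without Pdf. mRpS18B was lower than larval Elav in larval Pdf (3.05-fold, adjusted p = 0.0184), larval Tim without Pdf (3.91-fold, adjusted p = 0.00313) and adult Elav (3.18-fold, adjusted p = 0.00817). mRpS18C was called in larval Tim without Pdf (4.04-fold lower, adjusted p = 0.0156) and adult Elav (3.46-fold lower, adjusted p = 0.0269). mRpS18A was called lower in larval Tim without Pdf (2.32-fold, adjusted p = 0.0495) and, unlike the other two, in the eye against adult Elav (3.40-fold, adjusted p = 0.00637); whether the 3 genes differ from each other was not tested.

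mRpL12, the stalk protein that recruits translation factors, had group means of 11.27 in larval Elav, 10.48 in larval Tim, 10.07 in larval Pdf, 9.73 in larval Tim without Pdf, 10.17 in adult Elav, 9.59 in large Pdf, 9.23 in small Pdf and 7.80 in the eye. It was called lower in the eye than in adult Elav (5.16-fold, adjusted p = 1.89e-04), and lower than in larval Elav in larval Pdf, larval Tim without Pdf and adult Elav (2.30-fold, 2.91-fold and 2.15-fold, adjusted p = 0.0417, 0.00677 and 0.0396). mRpS29 and mRpS30, the second of which sits in the large subunit of mammals despite its name, were called in none of the 11 comparisons of 2 groups, nor were mRpL20, mRpL50 and mRpS17. mRpS30 read 6.28, 6.06 and 6.79 in the eye and 8.29, 9.36 and 7.38 in adult Elav, without overlap, and its adjusted p was 0.0605. A missed threshold does not show that these 5 genes were alike in all groups.

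Genes that work beside the mitochondrial ribosome are set against the same shares of all genes tested called lower, 12.8% in larval Pdf, 9.63% in larval Tim and 25.4% in larval Tim without Pdf against larval Elav, and 23.4% in adult against larval Elav. The lists were taken by name, and their calls over larval Elav are set beside the ribosomal ones as counts. Of 14 mitochondrial tRNA synthetases, which charge tRNAs for the organelle, 6 were lower in larval Pdf, 1 in larval Tim and 5 in larval Tim without Pdf than in larval Elav, and none higher. The corresponding counts were 4, 2 and 8 of 11 mitochondrial translation factors. mEFTs, which recharges the elongation factor Tu, was lower in all 3 and in adult Elav. Its differences from larval Elav were -1.94 in larval Pdf, -1.46 in larval Tim, -2.63 in larval Tim without Pdf and -1.88 in adult Elav. The counts include mIF3, an initiation factor whose group means were under 5 on both sides, so that no fold is given for it.

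Of 10 genes for the upkeep and transcription of mitochondrial DNA and the handling of its RNA and proteins, 5, 3 and 6 were lower than in larval Elav, and in adult Elav 6 were lower and 1 higher. mtSSB, the single-strand DNA binding protein of mitochondria, read 12.23, 13.16 and 12.82 in larval Elav and 9.78, 10.05 and 9.74 in adult Elav, a difference of -2.88. TFAM, which packages the mitochondrial genome, read 11.34, 11.63 and 11.01 against 9.27, 8.28 and 8.37, a difference of -2.68. Adult Elav lay below larval Elav on every array for both genes, whereas Lon, a matrix protease, was higher in adult Elav by 2.33. In the eye against adult Elav, 4 of 14 tRNA synthetases, 5 of 11 translation factors and 4 of 10 genome expression genes were lower, where 25.5% of all genes tested were, among them mEFTu1 by 3.31 and bsf, the fly counterpart of LRPPRC, by 2.49 (log2).

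The fly also has mitochondrial ribosomal proteins under other names. tko, which encodes the S12 protein of the decoding site, lay at 10.06, 9.38 and 9.38 in adult Elav and at 4.34, 4.28 and 4.96 in the eye, all below 5, so that it was at least 24.3-fold lower (adjusted p = 1.34e-07). In larval Tim it was lower than in larval Elav by 2.63. Its other differences from larval Elav were 0.02 in larval Pdf, 0.34 in larval Tim without Pdf and 0.71 in adult Elav, none of them called. bonsai, which encodes the S15 protein, was lower than larval Elav in all 4 comparisons, by 1.71 in larval Pdf, 1.60 in larval Tim, 2.02 in larval Tim without Pdf and 2.78 in adult Elav.

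Cytosolic ribosomal proteins gave other counts on the same arrays. Of 34 tested (41 with a probe set), none was called in larval Pdf or larval Tim against larval Elav and 2 were lower in larval Tim without Pdf. Of all genes tested 12.8%, 9.63% and 25.4% were called lower in these comparisons. Their median differences there were 0.22, 0.21 and -0.06, where those of the mitochondrial ribosomal proteins were -1.38, -1.06 and -1.35. In the eye against adult Elav 1 was lower (median 0.16), where 25.5% of all genes tested were. Between larval and adult groups they gave more calls. Of the 34, 14 were lower in adult than in larval Elav (median -0.91), where 23.4% of all genes tested were. Against larval Pdf, 10 were lower in large Pdf and 8 in small Pdf, where 15.2% and 7.5% of all genes tested were.

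Oxidative phosphorylation genes, the nuclear subunits of the complexes that the mitochondrial ribosome helps to complete, numbered 72 with a probe set. Of these, 14 were at or under 5 on all arrays. The median over the 72 genes was highest in adult Elav (11.70 ± 0.32 SD, n = 3) and was 11.26 ± 0.21 in larval Elav. Of 56 tested, 3 were lower and 1 higher in larval Pdf than in larval Elav, and 1 was lower in larval Tim. In larval Tim without Pdf 13 were lower and 2 higher. Of all genes tested 12.8%, 9.63% and 25.4% were called lower in these comparisons, and 1996, 1795 and 3075 of 7670 in either direction. In adult against larval Elav 3 were higher and 3 lower (median 0.18), where 20.3% and 23.4% of all genes tested were. The mitochondrial ribosomal proteins had a median of -1.19 there. In small Pdf against adult Elav 9 of 56 were lower (median -1.09), where 5.18% of all genes tested were. That median was close to the -1.06 of the 69 genes. In the eye 19 were lower and 2 higher (median -0.73), where 25.5% and 14.4% of all genes tested were. Differences between these lists were not tested.

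The genes other than the 69 whose level over the 23 arrays most resembled the median of the 69 genes were CG4882 (Pearson r = 0.906), CG6000 (0.901), bsf (0.901), Naa40 (0.895) and Aladin (0.894). These points share arrays, and the correlations are given as a description.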

How the data were processed

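Per the labels' protocols, RNA from about 50 heads, between 0.1 and 0.4 ng, was amplified in 2 rounds of in vitro transcription. Such amplification can differ in yield from gene to gene, so levels were set against each other across groups only. The authors deposited log2 values computed by GCRMA, as the submitters' processing notes name it, without a version. Its settings, and a genome build, are not stated, and no coordinates or sequences are printed. Where an array of the dimmer group lay under 5, the fold is "at least", with values under 5 raised to 5. Of 18952 probe sets, 13647 had 1 gene, 402 several and 4720 none in the platform annotation, and 183 were controls. Symbols were updated against RefSeq (Release 6 plus ISO1 MT). Of 11982 genes, 7670 passed the filter and 4312 did not. limma 3.58.1 in R 4.3.3 fitted 8 group means over 23 arrays (residual degrees of freedom 15), with eBayes, two-sided tests and Benjamini-Hochberg adjustment over all genes tested, after a check on simulated data.

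The 69 genes, the gene lists and the tests were chosen with earlier results of these data known. In each comparison and direction up to 8 called genes whose groups did not overlap could be named, largest difference first. To these were added the 6 widest, 4 narrowest and 5 least alike profiles and 8 genes followed throughout, while single genes of the pathway lists were chosen after their values were seen. Alternatives changed the filter, the normalization, the probe set rule, array weights, the floor at 5, the arrays fitted and the replicate number as a block, and left out each array in turn. Fits without the larval Elav arrays were added after the data had been seen. The labels give no batch, so none was tested.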

Additional observations from a re-analysis of the deposited data

Results flagged for a closer look

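The adult minus larval change in Pdf neurons was tested against that in Elav cells for all genes, and among the 69 genes 4 differences passed. They were 3 higher in large Pdf, where 6.84% of all genes tested were called higher, and 1 lower in small Pdf, where 9.61% were called lower, so neither share exceeds that of all genes. In large Pdf the difference of changes was 2.50 for mRpL41, 2.27 for mRpS24 and 2.02 for mRpS25 (log2). mRpS24 stayed called under all 31 alternatives, mRpL41 under 29 and mRpS25 under 22. In small Pdf the difference was -2.78 for mRpS21, and it lost its call with values under 5 raised to 5. Larval Elav, in which most neuronal markers were under 5, enters all 4, and its part in them was not tested.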

How the results depend on the processing

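Over 26 counts and medians, 766 of 820 values under an alternative stayed close to those reported and 54 moved. Of 80 named results, 36 kept their call under all 31 alternatives and none of the 2480 values reversed. Of the 31 alternatives, 23 left out 1 array each. Where that array was in none of the groups compared, the median could not change and calls could change only through the shared spread. Many values were thus bound to stay close. Quantile normalization once more moved the median of all genes from -0.50 to -0.21 in the eye comparison, where the 69 genes then had -1.06. It gave 23 calls and a median of -0.95 for larval Tim without Pdf against larval Elav, 9 calls and -0.34 for larval Pdf against larval Tim without Pdf, 4 calls for large Pdf against adult Elav and 5 for the change in large Pdf. With limma fitted to the groups compared alone, the calls were 19 for larval Pdf and 20 for larval Tim against larval Elav, 1 for large Pdf and 3 for small Pdf against adult Elav, and 2 for large Pdf and 1 for small Pdf against larval Pdf. They were 0 for larval Pdf against larval Tim without Pdf (7 at an unadjusted p under 0.05) and 0 for large against small Pdf (10 at an unadjusted p under 0.05). Array weights gave 44 calls for larval Tim, 8 for small Pdf against adult Elav and 8 for the change in large Pdf. Values raised to 5 gave 8 for small Pdf against adult Elav and 0 for the change in small Pdf (6 at an unadjusted p under 0.05). The cause was not tested.

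Leaving out single arrays gave 14 to 39 calls for larval Pdf, 2 to 19 for larval Tim and 21 to 41 for larval Tim without Pdf against larval Elav, the last with medians of -1.68 to -1.26. It gave 2 to 6 for larval Pdf against larval Tim without Pdf, 2 to 10 (medians -0.94 to -0.32) for large Pdf and 3 to 8 for small Pdf against adult Elav, and 2 to 4 for large against small Pdf. From larval to adult Elav the range was 15 to 37, from larval Pdf to large Pdf 4 to 13, and from larval Pdf to small Pdf 1 to 12 (medians -0.87 to -0.47); for the changes it was 1 to 5 in large Pdf and 1 to 2 in small Pdf. With the larval Elav arrays left out, the 7 comparisons that do not use them had counts within 1 of those reported. Replicate numbers do not pair the samples: over 77 pairs of the same number the median correlation of deviations was -0.0146 (-0.317 to 0.278), and 6 were above 0.1. With the replicate number as a block, the counts were 30 for larval Pdf, 10 for larval Tim and 35 for larval Tim without Pdf against larval Elav, and no count moved by over 1.5 times.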

Other observations

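Of 3 growth regulators measured, ewg, the fly relative of the vertebrate factor NRF-1, was called higher than larval Elav in 3 of 4 groups. It read 7.66, 6.77 and 7.49 in larval Elav, 9.67, 9.44 and 10.04 in larval Pdf, 8.58, 9.23 and 9.66 in larval Tim, and 10.42, 10.33 and 9.85 in adult Elav. The differences by limma were 2.41 in larval Pdf, 1.85 in larval Tim and 2.90 in adult Elav (log2), without overlap of the arrays. In larval Tim without Pdf the difference was 0.21 (adjusted p = 0.798), and in the eye ewg was lower than in adult Elav by 1.38. Max, the partner of Myc, was lower in larval Tim without Pdf than in larval Elav by 3.33, and Dref was lower in adult than in larval Elav by 1.49 and in the eye than in adult Elav by 1.53. These genes were chosen after their values were seen.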
